A study of Mus musculus with 7 samples.

Results

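The levels of 9 mouse genes of the inflammasome and of gasdermin-driven pyroptosis were followed: Gsdmd, Gsdme, Casp1, Casp4, Casp12, Pycard, Il1b, Naip2 and Ninj2. They were taken by symbol from the 56953 genes of the deposited count tables, and all 9 were found. RNA came from cells sorted out of tumours of B16, a mouse melanoma line, 5 days after treatment, keeping cells stained neither for CD45, a leukocyte surface marker, nor for CD31, an endothelial one. Tumours of the AAV-iIL12 group (3 libraries) had been irradiated with 8 Gy and combined with AAV-iIL12. Those of the AAV-iLuc group (4 libraries) had the same 8 Gy combined with AAV-iLuc. Adeno-associated virus (AAV) is a carrier for genes. Radiation and a viral carrier were common to both groups. By the treatment labels the groups differ in what was carried, AAV-iIL12 or AAV-iLuc. The sample titles mark the AAV-iIL12 libraries as WT and name no genotype for the AAV-iLuc libraries, and the labels state no strain, sex or age of the hosts. The series' design text counts each library as 1 mouse.

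Inflammasomes are protein platforms that form in the cytosol when a sensor, such as a NAIP or NLRP protein, meets a microbial product or a sign of damage. The adaptor ASC, encoded by Pycard, links the sensor to caspase-1, which cuts the precursors of interleukin 1 beta and interleukin 18. Caspase-1 and caspase-11, which mouse Casp4 encodes, also cut gasdermin D, whose freed end makes pores in the plasma membrane, and the lytic death that follows is called pyroptosis. Messenger RNA levels do not show whether any of these proteins was cut or active.

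The sorted cells carried melanocyte RNA. The 7 melanocyte markers (Dct, Tyrp1, Tyr, Pmel, Mlana, Sox10 and Mitf) summed to between 27845 and 28742 CPM, counts scaled to sequencing depth, in AAV-iIL12 libraries and to between 22839 and 25991 CPM in AAV-iLuc libraries, and 3 of them (Pmel, Mlana and Mitf) were called higher. The 8 leukocyte markers summed to between 14.8 and 22.1 CPM in AAV-iIL12 libraries. In AAV-iLuc they summed to 21.5 CPM in replicate 1 and to between 7.51 and 9.83 CPM in the other 3 libraries, and 0 of the 6 tested passed the edgeR test. Itgb2 gave between 6.69 and 11.9 CPM of this sum in every library. Without it the other 7 leukocyte markers summed to 10.1, 6.46 and 4.17 CPM in AAV-iIL12 libraries, against 9.93, 0.822, 0.596 and 1.91 CPM in AAV-iLuc libraries, so that AAV-iLuc replicates 2, 3 and 4 stood below all AAV-iIL12 libraries. The 11 macrophage and monocyte markers summed to between 24.9 and 41.2 CPM in AAV-iIL12 libraries and to between 15.7 and 34.6 CPM in AAV-iLuc libraries, and of the 8 tested only C1qb passed, as higher. Cd68 gave between 13.9 and 21.2 CPM of this sum in every library. Without it the other 10 markers summed to 20.04, 9.23 and 8.02 CPM in AAV-iIL12 libraries, against 18.2, 1.21, 1.79 and 4.48 CPM in AAV-iLuc libraries. Neutrophil markers reached at most 0.380 CPM in AAV-iIL12 libraries, against 0.624 CPM in AAV-iLuc libraries, with Ly6g and Cxcr2 at 0 counts in every library. The endothelial markers Cdh5, Tie1 and Emcn were at 0 counts in every library too, but Pecam1 and Kdr of the same list were not. Pecam1, the gene of CD31, had 3, 4 and 1 counts in AAV-iIL12 libraries, against 7, 2, 1 and 2 counts in AAV-iLuc libraries. Kdr had 3, 0 and 1 counts in AAV-iIL12 libraries, against 1, 0, 0 and 0 counts in AAV-iLuc libraries. The 8 T and NK cell markers summed to between 0.824 and 3.84 CPM in AAV-iIL12 libraries and to between 0 and 1.35 CPM in AAV-iLuc libraries, and none was tested. The 4 epithelial markers summed to between 9.56 and 15.2 CPM in AAV-iIL12 libraries and to between 1.86 and 2.96 CPM in AAV-iLuc libraries, nearly all of it Cdh1, which was called higher, while Krt5 was at 0 counts. Fibroblast and pericyte markers summed to between 28.6 and 64.2 CPM in AAV-iIL12 and to between 37.6 and 108 CPM in AAV-iLuc, with 0 of 5 tested genes passing. The part of these cell types in the results was not tested. In RNA from a mixed sort, fewer cells of a type and less RNA per cell cannot be told apart.

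Of the 9 genes, 8 passed the filter on low counts. In the edgeR quasi-likelihood test 6 of them were higher in AAV-iIL12 (Gsdmd, Casp1, Casp4, Casp12, Pycard and Naip2), 0 were lower, and Gsdme and Il1b did not pass, at a Benjamini-Hochberg adjusted p threshold of 0.05 over 13990 genes. By the same rule 47.2% of all tested genes were called, 23.5% as higher and 23.7% as lower. Higher calls were 49.8% of all calls, 36.0% when scaled by library size only and 38.5% by upper quartile. The genes were picked with earlier results of these data known, so their share of calls is not set against that background as a result. For the 6 genes every AAV-iIL12 library stood above every AAV-iLuc library, a pattern seen in 25.9% of tested genes. Casp1 and Il1b had at least 10 counts in all 3 AAV-iIL12 libraries but in 1 of 4 AAV-iLuc libraries, so both passed the filter through the AAV-iIL12 group.

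**Figure D1:**
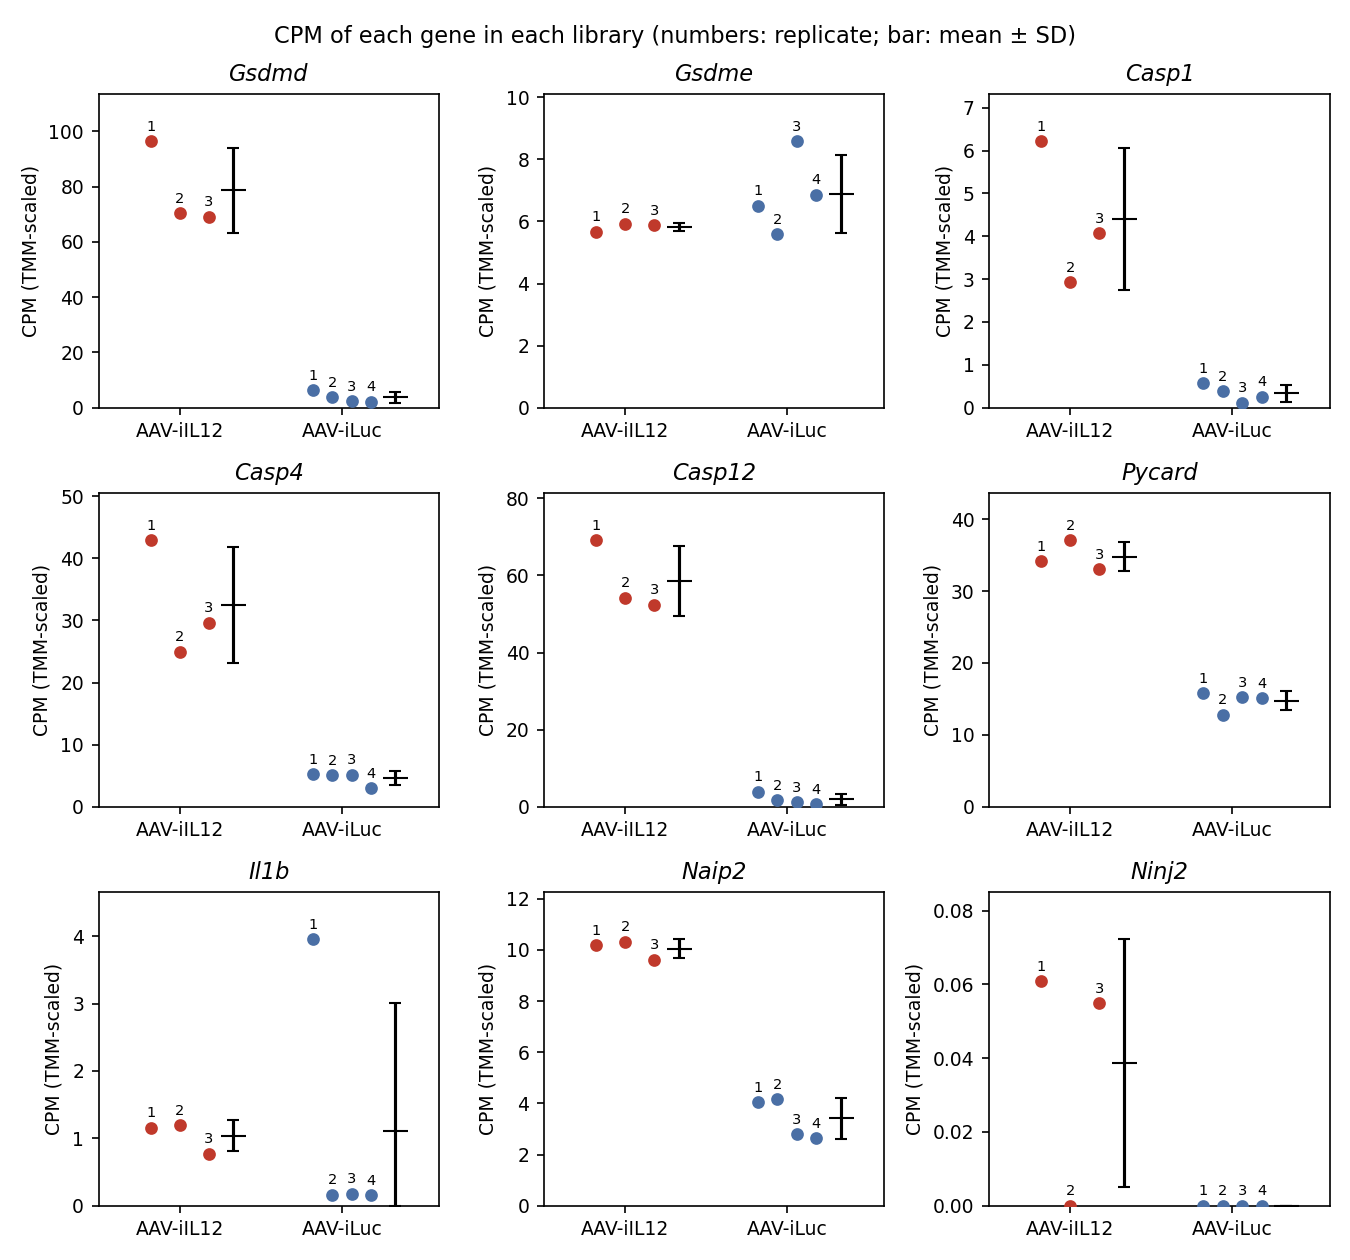
Each panel plots 1 gene's CPM (vertical axis, own scale from 0) in the 3 AAV-iIL12 libraries (left, red) and the 4 AAV-iLuc libraries (right, blue), numbered by replicate, with the mean and SD as a bar (cut at 0). The groups stand apart for Gsdmd, Casp1, Casp4, Casp12, Pycard and Naip2, while AAV-iLuc replicate 1 stands alone for Il1b at 3.95 CPM.

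Among the executioners of pyroptosis, Gsdmd rose and Gsdme did not pass the test. Gsdmd (ENSMUSG00000022575, chromosome 15, 75734176 to 75739257, GRCm39), which encodes the pore-forming gasdermin D, had 96.3, 70.4 and 69.1 CPM in AAV-iIL12 libraries, against 6.40, 3.84, 2.26 and 2.22 CPM in AAV-iLuc libraries. The lowest AAV-iIL12 library stood far above the highest AAV-iLuc library. The log2 fold change of Gsdmd was 4.40 ± 0.27 (SE), a 21.2-fold difference in the fit (edgeR adjusted p = 2.55e-06). Gsdmd had the highest level of the 9 genes in AAV-iIL12, both per annotated exon length and in plain mean CPM.

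Gsdme (ENSMUSG00000029821, chromosome 6, 50165868 to 50240842) encodes gasdermin E, which can turn apoptosis into a lytic death. It had 5.67, 5.92 and 5.88 CPM in AAV-iIL12 libraries, against 6.50, 5.59, 8.58 and 6.86 CPM in AAV-iLuc libraries. The groups overlapped, since AAV-iLuc replicate 2 stood below all AAV-iIL12 libraries. The log2 fold change of Gsdme was -0.24 ± 0.15 (SE, adjusted p = 0.227), and it lay between -0.33 and -0.12 over 16 alternatives, with an adjusted p of 0.0977 to 0.513.

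Another gasdermin gene fell. In the list of 9 other gasdermin and rupture genes 2 were tested, of which Gsdmc fell and Ninj1 did not pass. Gsdmc, of the gasdermin C family, had 41.1, 61.5 and 59.9 CPM in AAV-iIL12 libraries, against 136, 136, 155 and 113 CPM in AAV-iLuc libraries, with no overlap. Its log2 fold change was -1.31 ± 0.14 (SE, adjusted p = 5.88e-05). Gsdmc has close copies in Gsdmc2, Gsdmc3 and Gsdmc4, which held at most 10 counts in any library, and reads may have been lost or shared among them. Levels of different genes were compared as CPM per kilobase of exon. On that scale Gsdmd stood at 40.5, 29.6 and 29.1 and Gsdmc at 17.1, 25.6 and 24.9 in AAV-iIL12 replicates 1, 2 and 3. In AAV-iLuc libraries the per-kilobase level of Gsdmd was between 0.932 and 2.69 and that of Gsdmc between 46.9 and 64.6. The ratio of Gsdmd to Gsdmc per length was therefore between 1.16 and 2.37 in AAV-iIL12 libraries and between 0.0147 and 0.0475 in AAV-iLuc libraries. This ratio is taken within a library and does not depend on the scaling between libraries. Gsdme stood between 0.445 and 0.465 CPM per kilobase in AAV-iIL12 and between 0.439 and 0.673 CPM per kilobase in AAV-iLuc. On this scale it lay below both other gasdermins in every library. The annotated exon lengths were 12742 bases for Gsdme, 2377 for Gsdmd and 2405 for Gsdmc. In plain CPM Gsdme stood above Gsdmd in every AAV-iLuc library, at 6.50, 5.59, 8.58 and 6.86 against 6.40, 3.84, 2.26 and 2.22.

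**Figure D2:**
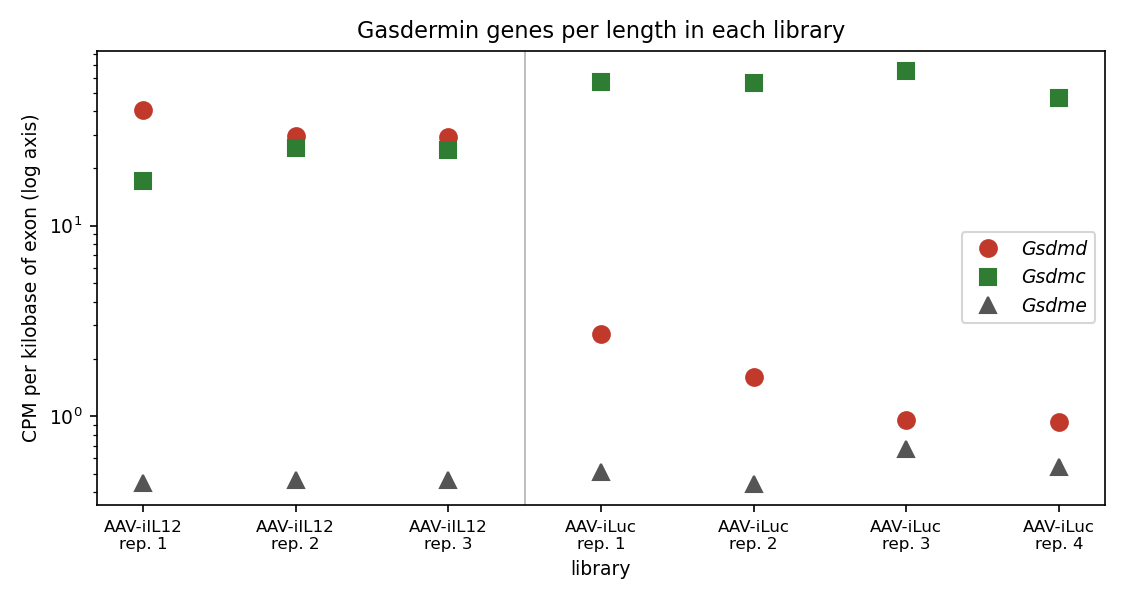
CPM per kilobase of exon (vertical log axis) of 3 gasdermin genes in each library (horizontal axis, AAV-iIL12 left of AAV-iLuc). Gsdmd (circles) lies above Gsdmc (squares) in the 3 AAV-iIL12 libraries and below it in the 4 AAV-iLuc libraries. Gsdme (triangles), which has the longest annotated exons of the 3, lies lowest in all 7 on this scale.

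Neither ninjurin gene was called. Ninj1, whose product ruptures the plasma membrane late in lytic death, had 68.4, 76.2 and 69.1 CPM in AAV-iIL12 libraries, against 74.5, 74.9, 74.6 and 72.4 CPM in AAV-iLuc libraries (log2 fold change -0.06 ± 0.05, adjusted p = 0.405). Scaling by library size only gave -0.15 with an adjusted p of 0.0391. Its paralogue Ninj2 (ENSMUSG00000041377, chromosome 6, 120070311 to 120177300), an adhesion protein, was not tested because of its low counts. Ninj2 had 1, 0 and 1 counts in AAV-iIL12 libraries and 0 counts in all 4 AAV-iLuc libraries, where a count of 0 allows a level of up to 0.0407 CPM (3 counts over the group). No fold change is given for it.

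The 3 inflammatory caspase genes rose together, and Casp12 had the largest change of the 9 genes. They lie side by side on the plus strand of chromosome 9 in the order Casp1, Casp4, Casp12 (ENSMUSG00000025888, 5298508 to 5307290, ENSMUSG00000033538, 5308828 to 5336783, and ENSMUSG00000025887, 5345430 to 5373032, GRCm39). These 3 were the only genes annotated in the 74.5 kb that they span in the files, and their exons share no bases with another gene of the same strand. The next tested genes were Gria4, 502.3 kb before the block, with 20.3 ± 2.57 CPM in AAV-iIL12 libraries, against 36.4 ± 1.27 CPM in AAV-iLuc libraries, and Pdgfd, 795.6 kb after it, with 11.7 ± 1.19 CPM in AAV-iIL12 libraries, against 1.11 ± 0.54 CPM in AAV-iLuc libraries (SD, n = 3 and 4). Gria4 was called lower and Pdgfd higher (edgeR adjusted p = 4.51e-05 and 1.13e-05).

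The stretch before the start site of each caspase gene is shown because these neighbours changed together by different amounts. Each is 250 bases from the RefSeq promoter table, 5′ to 3′ on the plus strand of GRCm38.p6, at chr9:5298267-5298516 for Casp1, chr9:5308599-5308848 for the first of 2 overlapping entries of Casp4 and chr9:5345226-5345475 for Casp12. Capitals mark matches on either strand to the interferon-gamma-activated site GAS (TTCNNNGAA) or to the kappaB motif of NF-kB factors.
Casp1: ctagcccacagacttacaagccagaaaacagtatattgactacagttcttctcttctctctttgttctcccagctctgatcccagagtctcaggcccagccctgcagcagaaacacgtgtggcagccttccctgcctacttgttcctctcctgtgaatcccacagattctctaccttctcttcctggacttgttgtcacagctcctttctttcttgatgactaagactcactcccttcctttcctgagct
Casp4: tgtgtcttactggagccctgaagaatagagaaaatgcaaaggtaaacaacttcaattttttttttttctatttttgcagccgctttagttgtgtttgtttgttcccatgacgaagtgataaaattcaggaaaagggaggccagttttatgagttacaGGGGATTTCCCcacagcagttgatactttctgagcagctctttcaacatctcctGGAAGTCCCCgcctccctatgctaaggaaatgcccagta
Casp12: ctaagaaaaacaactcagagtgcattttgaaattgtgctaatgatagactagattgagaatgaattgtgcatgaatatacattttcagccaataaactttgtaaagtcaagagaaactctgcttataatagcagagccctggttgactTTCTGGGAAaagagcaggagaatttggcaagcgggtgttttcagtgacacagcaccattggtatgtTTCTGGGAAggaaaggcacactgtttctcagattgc
The Casp12 window held the GAS letters at 2 places, starting 102 and 36 bases before the start site, both spelled TTCTGGGAA. The Casp4 window held 3 kappaB matches, of which those starting 93 and 92 bases before the start overlap, and the Casp1 window held neither motif. Of 32851 promoter windows of this length in the table, 7.02% held GAS, 7.25% the kappaB motif and 2.98% the interferon-stimulated response element ISRE. Counted by gene over 27025 genes, the shares were 8.13% for GAS, 8.23% for kappaB and 3.46% for ISRE. Of the 9 genes 8 had an entry, with GAS in 1 (Casp12), kappaB in 1 (Casp4) and ISRE in 0. A match is a description of letters and shows no binding.

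Casp12 encodes caspase-12, a member of the inflammatory caspase group that sits at the endoplasmic reticulum. It had 69.1, 54.2 and 52.4 CPM in AAV-iIL12 libraries, against 3.90, 1.70, 1.19 and 0.670 CPM in AAV-iLuc libraries. Replicate 1 was the highest library of each group, and the groups were far apart. The log2 fold change of Casp12 was 4.95 ± 0.32 (SE, adjusted p = 3.14e-06), and 5.63 without AAV-iLuc replicate 1.

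Casp4 encodes caspase-11, the intracellular receptor for bacterial lipopolysaccharide. It had 42.9, 24.98 and 29.6 CPM in AAV-iIL12 libraries, against 5.25, 5.04, 5.12 and 2.94 CPM in AAV-iLuc libraries. AAV-iLuc replicate 4 stood apart as the low library of its group. The log2 fold change of Casp4 was 2.82 ± 0.22 (SE, adjusted p = 8.12e-06).

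Casp1, the gene of the caspase that matures interleukin 1 beta, was the scarcest of the 3. It had 6.21, 2.93 and 4.07 CPM in AAV-iIL12 libraries, against 0.572, 0.384, 0.119 and 0.258 CPM in AAV-iLuc libraries, or 102, 54 and 74 counts against 11, 7, 2 and 5. Its log2 fold change was 3.67 ± 0.40 (SE, adjusted p = 5.69e-05), the widest error of the 3 caspases. Per length, Casp12 stood 9.08, 15.1 and 10.5 times above Casp1 in AAV-iIL12 libraries and between 2.12 and 8.17 times above it in AAV-iLuc libraries, where few Casp1 counts make the ratio imprecise.

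The adaptor gene and the NAIP sensor gene also rose. Pycard (ENSMUSG00000030793, chromosome 7, 127588880 to 127593039), the gene of the adaptor ASC, had 34.2, 37.0 and 33.1 CPM in AAV-iIL12 libraries, against 15.8, 12.8, 15.2 and 15.1 CPM in AAV-iLuc libraries. Its libraries lay close together within each group, and its log2 fold change was 1.24 ± 0.09 (SE, adjusted p = 4.81e-06). Naip2 (ENSMUSG00000078945, chromosome 13, 100280571 to 100338600), whose product senses the rod protein of bacterial secretion systems, had 10.2, 10.3 and 9.61 CPM in AAV-iIL12 libraries, against 4.06, 4.17, 2.80 and 2.63 CPM in AAV-iLuc libraries. Its log2 fold change was 1.55 ± 0.17 (SE, adjusted p = 5.68e-05). Naip genes are close copies of each other, so reads may have been lost or shared among them, and their values are uncertain to that extent.

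Il1b, the gene of the cytokine that caspase-1 matures, gave a result that turned on 1 library. Il1b (ENSMUSG00000027398, chromosome 2, 129206490 to 129213059) had 1.16, 1.19 and 0.769 CPM in AAV-iIL12 libraries, against 3.95, 0.164, 0.179 and 0.155 CPM in AAV-iLuc libraries, or 19, 22 and 14 counts against 76, 3, 3 and 3. AAV-iLuc replicate 1 stood above all AAV-iIL12 libraries, and the other 3 AAV-iLuc libraries stood below them. With all 7 libraries the log2 fold change of Il1b was -0.12 ± 0.98 (SE, adjusted p = 0.93). Without AAV-iLuc replicate 1 it was 2.60 ± 0.41 (SE, adjusted p = 0.00067), from 9 counts in the AAV-iLuc group.

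**Figure D3:**
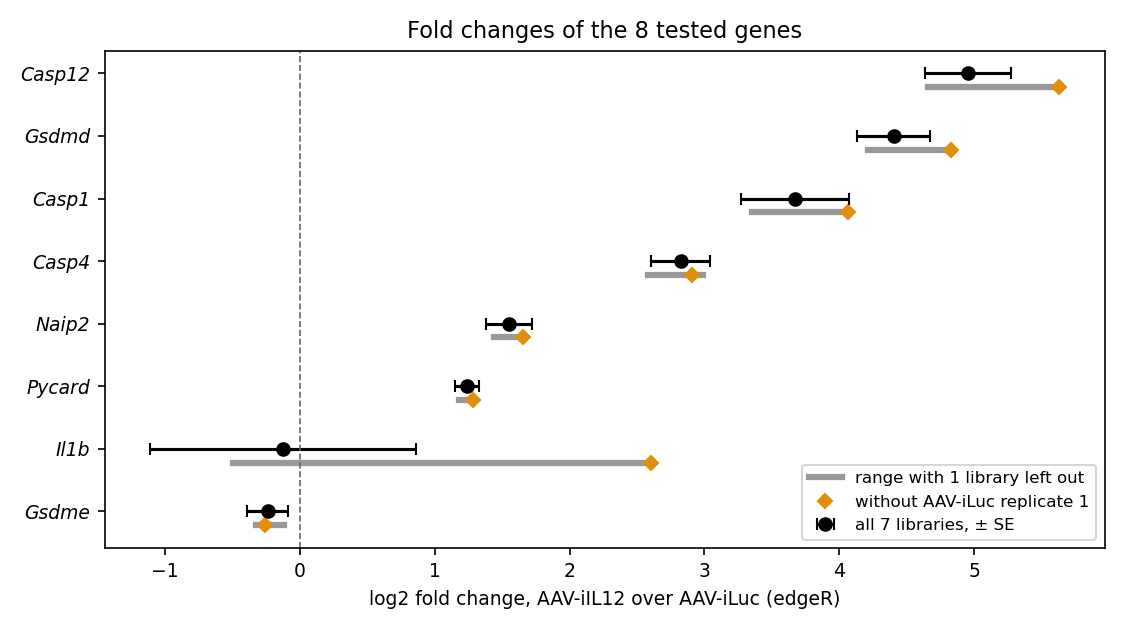
Log2 fold change of AAV-iIL12 over AAV-iLuc (horizontal axis) for the 8 tested genes (rows): circles with SE bars from all 7 libraries, grey bars the range with 1 library left out, diamonds the value without AAV-iLuc replicate 1. The grey bar of Il1b crosses 0 and reaches 2.60, while those of Gsdmd, Casp1, Casp4, Casp12, Pycard and Naip2 stay above 0.

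Leukocyte genes were also high in AAV-iLuc replicate 1. Their summed level was 22.1, 16.8 and 14.8 CPM in AAV-iIL12 libraries, against 21.5, 7.51, 9.83 and 9.54 CPM in AAV-iLuc libraries, with a larger gap to AAV-iLuc replicates 2, 3 and 4 when Itgb2 is left out. The macrophage gene Lyz2 had 71, 53 and 42 counts in AAV-iIL12 libraries, against 125, 3, 9 and 19 counts in AAV-iLuc libraries. Csf1r, Mrc1, Fcgr1 and Itgam of the same list also had their highest count in AAV-iLuc replicate 1. C1qa, C1qb, C1qc and Cd68 had theirs in AAV-iIL12 replicate 1, at 51, 75, 52 and 348 counts. In AAV-iLuc replicate 1 they held 13, 23, 30 and 316 counts. Adgre1 was highest in AAV-iIL12 replicate 2, and Ccr2 had 12 counts in both replicates numbered 1. Outside that list Nlrp3 and Il1rn, like Il1b, had their highest count in AAV-iLuc replicate 1. Nlrp3, the NLRP3 sensor, had 17, 10 and 12 counts in AAV-iIL12 libraries, against 24, 3, 2 and 5 counts in AAV-iLuc libraries. Il1rn, the interleukin 1 receptor antagonist, had 18, 10 and 9 counts in AAV-iIL12 libraries, against 24, 1, 0 and 4 counts in AAV-iLuc libraries. Lyz2 and Il1rn were chosen after their values were seen. The part of leukocyte RNA in the values of Il1b, Nlrp3, Il1rn, Gsdmd, Casp12 and Casp1 was not tested. The replicates numbered 1, which were not taken as a pair, had nearly equal leukocyte sums, with or without Itgb2. Their T and NK cell sums differed, at 3.84 CPM in AAV-iIL12 replicate 1, against 1.35 CPM in AAV-iLuc replicate 1. Gsdmd had 96.3 CPM in AAV-iIL12 replicate 1, against 6.40 CPM in AAV-iLuc replicate 1. In these libraries Casp12 had 69.1 CPM, against 3.90 CPM, and Casp1 had 6.21 CPM, against 0.572 CPM. Within AAV-iIL12, replicate 1 had both the highest leukocyte sum and the highest Gsdmd, Casp1, Casp4 and Casp12. Within AAV-iLuc, 6 of the 8 genes with counts were highest in replicate 1, and Gsdme and Naip2 were not.

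**Figure D4:**
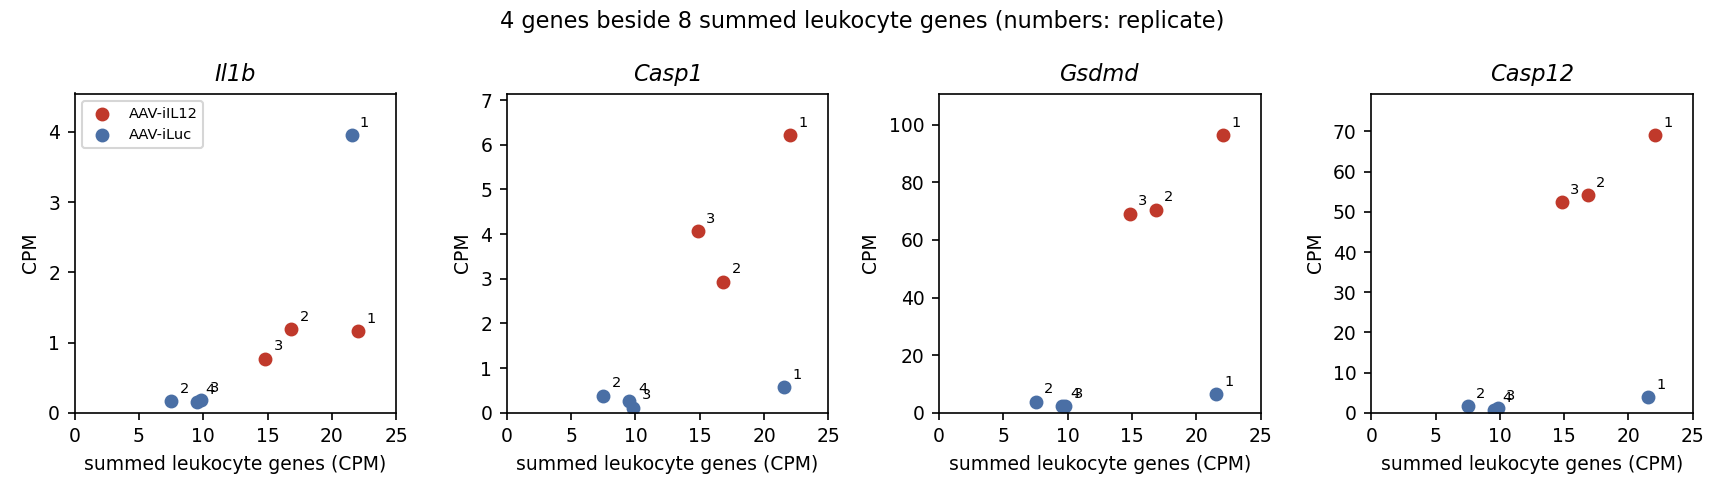
CPM of Il1b, Casp1, Gsdmd and Casp12 (vertical axes from 0) against the summed CPM of 8 leukocyte genes, Itgb2 included (horizontal axes) in each library, red for AAV-iIL12 and blue for AAV-iLuc, numbered by replicate. The replicates numbered 1 of both groups have leukocyte sums of 22.1 and 21.5 CPM but lie far apart in Casp1, Gsdmd and Casp12, and Il1b is highest in AAV-iLuc replicate 1.

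The order of the genes by level per length differed between the groups. Lengths took in all annotated exons of a gene, such as 2377 bases for Gsdmd, 3800 for Pycard and 12742 for Gsdme. The length of the transcripts in these cells was not measured, so the order holds for the annotated lengths only. In AAV-iIL12 Gsdmd led with 33.1 ± 6.45 CPM per kilobase, followed by Casp12 with 15.3 ± 2.38, Pycard with 9.15 ± 0.54 and Casp4 with 8.76 ± 2.51 (SD, n = 3). Lower levels per kilobase in AAV-iIL12 were those of Naip2 at 2.07 ± 0.077, Casp1 at 1.40 ± 0.53, Il1b at 0.546 ± 0.124 and Gsdme at 0.457 ± 0.011. Pycard and Casp4 overlapped there, as did Il1b and Gsdme, and the other neighbours in this order did not. In AAV-iLuc Pycard led with 3.87 ± 0.35 CPM per kilobase (SD, n = 4) and overlapped with no other gene. Below it in AAV-iLuc came Gsdmd, Casp4, Naip2, Il1b, Gsdme, Casp12 and Casp1, with means between 0.106 and 1.55 CPM per kilobase, and each of these overlapped with the next. Casp12 thus ranked second in AAV-iIL12 and seventh in AAV-iLuc.

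The 3 tested genes whose profile over the 7 libraries was nearest to that of Casp12 were Il12rb1, Ifi211 and Oasl2. Nearness was the Euclidean distance between log2 CPM values centred on each gene's mean, and it was 0.368, 0.495 and 0.530. Il12rb1, a subunit of the interleukin 12 receptor, had 137 ± 5.69 CPM in AAV-iIL12 libraries, against 4.29 ± 3.3001 CPM in AAV-iLuc libraries (SD, n = 3 and 4). Ifi211, of the interferon-inducible p200 family, had 22.01 ± 7.27 CPM in AAV-iIL12 libraries, against 0.639 ± 0.625 CPM in AAV-iLuc libraries. Oasl2, of the oligoadenylate synthetase-like family, had 202 ± 26.3 CPM in AAV-iIL12 libraries, against 7.08 ± 6.73 CPM in AAV-iLuc libraries.

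Around the 9 genes, 9 pathway lists of 84 further genes were examined, of which 83 were matched and 58 tested. Of these 27 rose, 9 fell and 22 did not pass, with a median log2 fold change of 0.25, beside -0.01 over all tested genes. Over all tested genes 47.2% were called, 23.5% as higher and 23.7% as lower. The counts of each list below are to be read beside these shares, and no list was tested as a set.

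Most sensor genes failed the filter on low counts. Of 13 sensor genes 4 were tested, 2 rose and 2 did not pass, and their median log2 fold change was 1.62. Those called higher were Naip5 and Naip6, close copies of Naip2. Neither reached 10 counts in any AAV-iLuc library, so both passed the filter through the AAV-iIL12 group, and their calls rest on it. Naip5 had 1.65, 0.815 and 1.70 CPM in AAV-iIL12 libraries, against 0.364, 0.164, 0.119 and 0.103 CPM in AAV-iLuc libraries, and its log2 fold change was 2.82 ± 0.46 (SE, adjusted p = 0.000654). The log2 difference of Naip6 was 2.55 ± 0.40 (SE, adjusted p = 0.000504). Nlrp3 reached 10 counts in all 3 AAV-iIL12 libraries but in 1 AAV-iLuc library, replicate 1. It failed the filter when AAV-iLuc replicate 1 was left out, so its passing rested in part on that library. Nlrp3 averaged 0.746 ± 0.258 CPM in AAV-iIL12 libraries, against 0.447 ± 0.537 CPM in AAV-iLuc libraries (adjusted p = 0.436), and Nlrp10, the most abundant of the 13 per length, 1.48 CPM in AAV-iIL12 libraries, against 1.498 CPM in AAV-iLuc libraries (adjusted p = 0.977). Aim2, the sensor of cytosolic DNA, had 4, 2 and 2 counts in AAV-iIL12 libraries, against 2, 0, 0 and 2 counts in AAV-iLuc libraries, and was not tested.

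Among cofactors 2 of 6 tested genes rose, 1 fell and 3 did not pass, with a median of 0.05. This share of calls was near the 47.2% of all tested genes. Txnip, which binds NLRP3 under oxidative stress, averaged 193 CPM in AAV-iIL12 libraries, against 110 CPM in AAV-iLuc libraries, and its log2 difference was 0.82 ± 0.12 (SE, adjusted p = 0.000433). Nek7, a kinase that NLRP3 needs to assemble, rose by 0.29 (adjusted p = 0.00427), and Brcc3, which removes ubiquitin from NLRP3, fell by 0.24 on the log2 scale (adjusted p = 0.0105).

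Genes that restrain the pathway changed in both directions. Of 7 tested genes 3 rose, 2 fell and 2 did not pass, with a median of 0.32. Il18bp, the secreted protein that neutralises interleukin 18, had 215, 188 and 183 CPM in AAV-iIL12 libraries, against 15.1, 4.93, 3.10 and 2.73 CPM in AAV-iLuc libraries. Its log2 fold change was 4.90 ± 0.40 (SE, adjusted p = 1.09e-05), and 5.77 without AAV-iLuc replicate 1. Trim30a, a tripartite motif protein, rose by 3.69 and Tnfaip3, the inhibitor A20, by 1.29 (adjusted p = 2.61e-05 and 0.000155). The genes that fell were Serpinb1a, a protease inhibitor, by 2.09 and Dpp9, a peptidase that restrains NLRP1, by 0.30 on the log2 scale (adjusted p = 0.0039 and 0.00109). Serpinb1a had 3, 4 and 2 counts in AAV-iIL12 libraries, against 18, 18, 8 and 11 counts in AAV-iLuc libraries. It thus passed the filter through the AAV-iLuc group, and its call rests on that group.

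In the interleukin 1 family list 1 of 4 tested genes rose and 3 did not pass, with a median of 0.34. The riser was Il18, another cytokine that caspase-1 matures. Il18 had 22.2, 16.8 and 20.1 CPM in AAV-iIL12 libraries, against 8.16, 8.11, 7.62 and 4.74 CPM in AAV-iLuc libraries, and its log2 fold change was 1.46 ± 0.17 (SE, adjusted p = 9.71e-05). Il33 averaged 6.40 CPM in AAV-iIL12 libraries, against 4.69 CPM in AAV-iLuc libraries (adjusted p = 0.177), and Il1rap, a shared receptor chain, 26.8 CPM in AAV-iIL12 libraries, against 30.4 CPM in AAV-iLuc libraries (adjusted p = 0.0794). Il1rap was called lower by library size only, by upper quartile scaling and without AAV-iLuc replicate 4 (adjusted p = 0.0126, 0.0195 and 0.0421). Downstream of the receptors, 4 of 6 tested signalling genes rose and 1 fell, with a median of 0.22. Myd88, the adaptor of interleukin 1 and Toll-like receptors, rose by 1.45 (adjusted p = 5.51e-06) and the kinase gene Irak2 by 0.86 (adjusted p = 0.000725), while Irak1 fell by 0.27 on the log2 scale (adjusted p = 0.000744).

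In the list of apoptotic caspases, Casp8 rose by 0.52 (adjusted p = 0.000943). Casp2 fell by 0.23 on the log2 scale (adjusted p = 0.0232), and it did not pass when AAV-iIL12 replicate 1, AAV-iLuc replicate 3 or AAV-iLuc replicate 4 was omitted (adjusted p = 0.0827, 0.0608 and 0.0571) or at a threshold of 0.01.

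The list of genes on the route from lipopolysaccharide to caspase-11 had the largest median of the 9 lists, 4.38, with 7 of 10 tested genes higher, 1 lower and 2 not passing. The 7 were Gbp2, Gbp3, Gbp5, Gbp7, Gm12250, Irgm1 and Irgm2, and the median rests on them. The 2 not passing were Ly96 and Cd14 (edgeR adjusted p = 0.0573 and 0.102). Gbp2, Gbp3 and Gbp5 encode guanylate-binding proteins, which coat cytosolic bacteria. Gbp5 rose by 6.10, Gbp2 by 5.73 and Gbp3 by 4.44 on the log2 scale (adjusted p = 1.96e-05, 0.000846 and 5.52e-05), and Gm12250, which encodes Irgb10, by 5.77 (adjusted p = 0.000288). Without AAV-iLuc replicate 1 these values were 8.22 for Gbp5, 7.30 for Gbp2, 5.30 for Gbp3 and 8.34 for Gm12250. Gbp5 reached 10 counts in all 3 AAV-iIL12 libraries but in 2 AAV-iLuc libraries. It thus passed the filter through the AAV-iIL12 group, and its call rests on that group. The gene that fell was Tlr4, the surface receptor for lipopolysaccharide, with 23.7 CPM in AAV-iIL12 libraries, against 31.2 CPM in AAV-iLuc libraries (log2 fold change -0.39, adjusted p = 0.00571).

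Genes of the ESCRT-III machinery, which can pinch off membrane damaged by gasdermin pores, were all tested. Of 13 genes 6 rose, 2 fell and 5 did not pass, with a median of 0.17. Chmp4b, the most abundant per length, averaged 213 CPM in AAV-iIL12 libraries, against 156 CPM in AAV-iLuc libraries, and its log2 difference was 0.44 ± 0.05 (SE, adjusted p = 0.000111). Chmp1b rose by 0.39 and Chmp2b by 0.29 (adjusted p = 0.00174 and 0.000633), and the genes that fell were Chmp6 and Tsg101, each by 0.27 on the log2 scale.

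**Figure D5:**
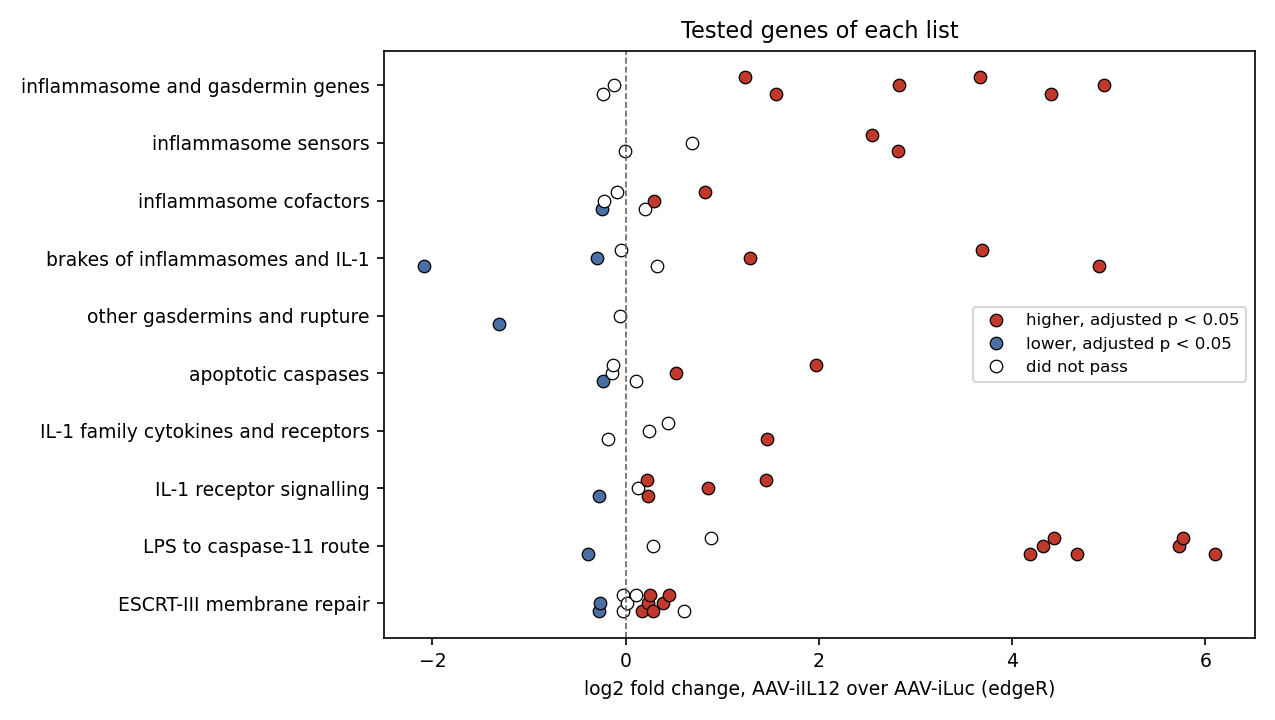
Log2 fold change of AAV-iIL12 over AAV-iLuc (horizontal axis) of each tested gene (points, shifted up and down for view) in the 9 inflammasome and gasdermin genes, of which 8 were tested, and in each of the 9 lists (rows), filled red where higher, blue where lower and white where the gene did not pass at an adjusted p of 0.05. The points of the lipopolysaccharide route reach 6.10 (Gbp5, which passed the filter through the AAV-iIL12 group), while those of the ESCRT-III list lie between -0.27 and 0.61.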

How the data were processed

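The deposited tables hold raw counts. The authors ran featureCounts 1.6.0 on exons grouped by gene, paired-end and reverse-stranded, against GENCODE vM32, per the file headers. The headers list no multi-mapping setting. Per the submitters' processing notes, STAR 2.7.9a and GRCm39 were used. Symbols were looked up by gene identifier in a reference table of gene names and matched 52029 genes holding 99.4% of counts. Total counts ranged from 16356653 to 19080587 per library, and each pair of replicates differed by more than sampling noise. Groups were compared with edgeR 4.0.16 (R 4.3.3): TMM scaling, filterByExpr, the quasi-likelihood F test and Benjamini-Hochberg adjustment over 13990 genes. CPM values are TMM-scaled, and level per length divides CPM by the exon length in the files. Standard errors derive from the F statistic. Alternatives were 3 other scalings, 2 other filters, DESeq2 1.42.0, limma-voom (limma 3.58.1), a threshold of 0.01, the replicate number as a block and each library left out.

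The genes and lists were chosen with earlier results of these data known. Named from each list were the 3 tested genes with the smallest p and the one most abundant per length. Aim2, Chmp6, Dpp9, Serpinb1a, Tlr4, Tsg101, Il1rn, Lyz2, Gria4, Pdgfd, C1qb, Cd14, Gbp7, Irgm1, Irgm2 and Ly96 fall outside that rule. They were named after their values were seen. Promoter sequences are from RefSeq (GRCm38.p6), and their coordinates are not comparable with those of the files. Some results of the apoptotic caspase list are not reported here. The labels give no sequencing batch.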

Additional observations from a re-analysis of the deposited data

Results flagged for a closer look

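Of 36 genes checked in the AAV-iLuc group, 6 had 1 library far from the other 3, by Dixon's ratio with its critical value for 4 samples. Chance flags about 1 in 20 groups. Of the 6, 4 were high in AAV-iLuc replicate 1. Il1b stood at 3.95 CPM there and at no more than 0.179 CPM in the other AAV-iLuc libraries. Nlrp3 stood at 1.25 CPM there and at no more than 0.258 CPM in the others. Gbp5 stood at 6.71 CPM there and at no more than 0.987 CPM in the others, and Gm12250 at 21.5 CPM there and at no more than 2.08 CPM in the others. The other 2 were low in AAV-iLuc replicate 4. Casp4 stood at 2.94 CPM there and at no less than 5.04 CPM in the other AAV-iLuc libraries, and Il18 at 4.74 CPM there and at no less than 7.62 CPM in the others.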

How the results depend on the processing

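Gsdmd, Casp1, Casp4, Casp12, Pycard and Naip2 stayed higher past the threshold in all 16 alternatives, with log2 fold changes from 4.21 to 4.82, 3.35 to 4.06, 2.58 to 2.99, 4.66 to 5.63, 1.148 to 1.28 and 1.44 to 1.66. Gsdme passed in 0 of them. Il1b changed sign in 4: 2.60 without AAV-iLuc replicate 1, 0.06 without AAV-iIL12 replicate 3, 1.32 in limma-voom and 0.24 with the replicate block, and among these it passed only without AAV-iLuc replicate 1. The cause of the sign under limma-voom and under the block was not tested. With 1 library left out Il1b ranged from -0.50 to 2.60. Nlrp10 ranged from -0.30 to 0.12 with 1 library left out, with values of 0.11, 0.12, 0.05 and 0.04 above 0, and never passed. With library size only, 15 pathway genes were called lower in place of 9, and the cause was not tested. Over all genes, 49.8% of calls were higher, against 36.0% by library size only and 38.5% by upper quartile. The correlation of deviations between same-numbered libraries was 0.0876, 0.0337 and -0.0485, so the numbers were not taken to pair the libraries. With the replicate block 6 of the 9 genes were still called higher, Casp2 lost its call as lower (-0.22, adjusted p = 0.0582), and over all genes 2832 were called higher and 2828 lower. Casp1 and Il1b rest on few counts in AAV-iLuc, which limits their precision.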
